A study of Homo sapiens with 2 samples.

Results

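The genes of the DNA topoisomerases and of the repair of topoisomerase adducts were followed in NK92 cells, an established human natural killer cell line, with and without PPMX-T003, an antibody that blocks the transferrin receptor TfR1 and so the uptake of transferrin-bound iron. The 9 genes were taken by name: 6 encode topoisomerases (TOP1, TOP1MT, TOP2A, TOP2B, TOP3A and TOP3B) and 3 encode proteins that remove topoisomerases trapped on DNA (TDP1, TDP2 and SPRTN). They are 9 of the 46425 gene symbols listed, and all 9 were among the 13665 genes tested, which had at least 20 counts summed over the libraries.

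The groups were a control dish of untreated NK92 cells and a dish exposed to PPMX-T003 at 10 µg/mL for 6 h, split from a single culture in medium with human serum after 18 h. Each dish gave 1 poly(A)-selected, stranded library, with 46766416 counts in the control library and 43178462 in the exposed library. The value columns carry the names 0 h and 6 h, although by the study's account the control dish was also kept for 6 h. The 0 h column was read as the control dish, and a difference in the time of harvest, if there was one, cannot be told apart from the exposure. With 1 library per group no difference has a replicate check, and every interval below is a 95% Clopper-Pearson interval on the division of a gene's reads between the libraries, which covers counting error only.

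Topoisomerases relieve the twist and tangling of DNA by cutting it and sealing it again. While the DNA is open, a tyrosine of the enzyme is covalently joined to a DNA end, and an enzyme that fails to reseal the break stays behind as an adduct. Type IB and type IA enzymes cut a single strand and type II enzymes cut both, and proliferating cells need them to replicate and separate their chromosomes.

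The libraries carried the expression of natural killer cells. All 10 natural killer cell markers had counts, and their summed level in TPM, a relative abundance per transcript length, was 6724 in the control library and 7335 in the exposed library, with NKG7 the most abundant at 3215 and 3445 TPM. The T cell genes CD3D, CD3G, CD5 and CD8A, the B cell gene MS4A1 and the erythroid genes HBB and ALAS2 had 0 counts in both libraries. The 3 myeloid markers summed to 24 and 16 counts, of which CSF1R had 22 and 9 and CD14 had 0 and 7. CD79A had 14 and 12 counts. FCGR3A, the Fc receptor that NK92 cells lack at their surface, had 16 and 15 counts, and CD4 had 4 and 0.

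Of the 9 genes, 8 had a lower scaled level in the exposed library and 1, TOP3B, a higher one, where 50.3% of all tested genes were lower. The median log2 fold change (exposed over control) was -0.11 over the 9 genes and 0.00 over all tested genes. None of the 9 had a log2 fold change below -0.32 (20% lower) or above 0.32 (25% higher), against 9.48% and 9.37% of tested genes, and none differed 2-fold, against 2.64%. The counting interval lay below 0 for 4 genes (TOP1, TOP2A, TOP2B and SPRTN) and above 0 for 0 genes, where it lay below 0 for 23.9% and above 0 for 21.8% of tested genes. Many of the tested genes had fewer counts than most of the 9 genes, and so wider intervals. On the deposited TPM, which scale each library to a fixed sum, 672 tested genes lay above 0.32 and 1109 below -0.32, against 1280 and 1295 on scaled counts, and TOP2A (-0.33) and TOP2B (-0.35) were among those below. The log2 fold change on TPM minus that on scaled counts had a median of -0.05 over the 6112 genes with at least 20 TPM in both libraries.

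The genes differed widely in level. Per length, TOP2A was the most abundant in the control library with 413 TPM, followed by TOP1 with 288, TDP2 with 129 and TOP2B with 73. The other genes lay between 6 and 27 TPM. TOP2A made up 42.0% of the summed TPM of the 9 genes in the control library and 39.2% in the exposed library, and TOP1 made up 29.3% and 30.6%. The sum itself was 984 TPM in the control library and 839 in the exposed library. The first 6 places in the order of levels (TOP2A, TOP1, TDP2, TOP2B, TDP1 and TOP3A) were held by the same genes in both libraries. SPRTN and TOP3B, at 16 and 13 TPM in the control library, were both listed at 13 TPM in the exposed library and cannot be ordered there, because the TPM were rounded to whole numbers.

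**Figure D1:**
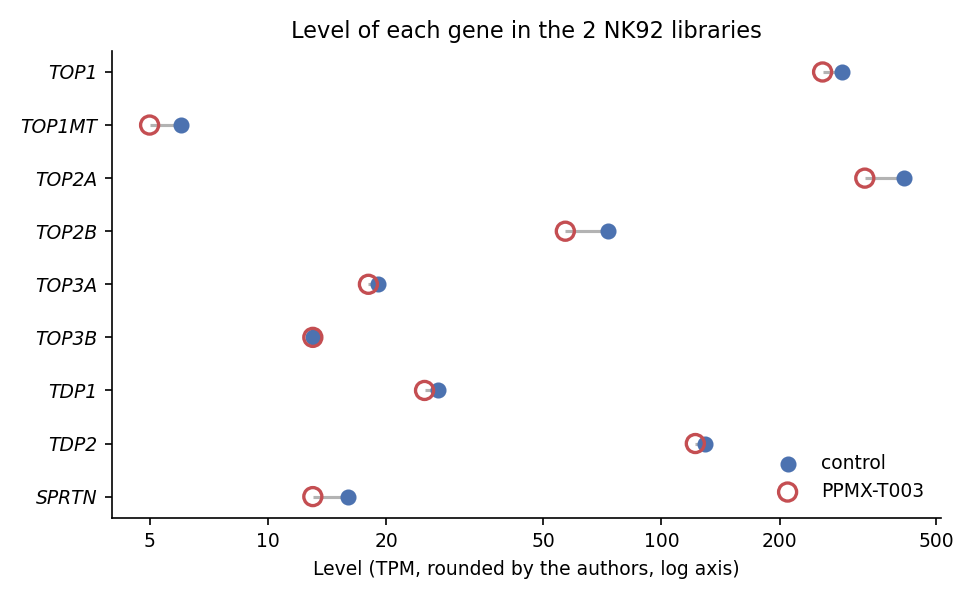
Level of each of the 9 genes in TPM (x axis, logarithmic) in the control library (filled points) and in the library exposed to PPMX-T003 (open points), 1 library each. TOP2A and TOP1 lie highest in both libraries, TOP1MT lowest at 6 and 5 TPM, and TOP3B is listed at 13 TPM in both.

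The type IB enzymes differ in where they act. TOP1 (chr20:41028822-41124487, plus strand, GRCh38.p14) is the nuclear enzyme that removes supercoils ahead of and behind moving polymerases, and the target of camptothecin. Its 22440 counts in the control library and 19147 in the exposed library gave a log2 fold change of -0.11 (interval -0.14 to -0.08). The exposed library was thus lower by more than counting error, and TOP1 lay at percentile 20.4 of the genes of like level, counted from the lowest change. TOP1MT, the enzyme of the mitochondrial genome, had 265 and 204 counts, a log2 fold change of -0.26 (interval -0.53 to 0.01). At this depth a difference of TOP1MT between the libraries was not resolved. The change of TOP1 minus that of TOP1MT was 0.15 on the log2 scale (exact conditional interval -0.12 to 0.42), so the pair could not be told apart by the counts. On the deposited TPM this difference was 0.06. With the trend on transcript length and GC content removed, as described further on, it was 0.32. That removal was chosen for the pairs after seeing the data, and no interval was computed for either value.

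The type II enzymes pass a whole duplex through a break in another and are the targets of etoposide and doxorubicin. TOP2A is made mainly by dividing cells, from S phase to mitosis, and condenses and untangles sister chromatids, whereas TOP2B is also made by resting cells and acts at transcribed genes. TOP2A lies on the minus strand at chr17:40388525-40417896 and TOP2B on the minus strand at chr3:25597905-25664907. The RefSeq promoter table (GRCh38.p14) held 8 of the 9 genes, and the stretches upstream of TOP2A (chr17:40417951-40418146) and of the most upstream start of TOP2B (chr3:25664940-25665157) are shown because these paralogs differ in how they follow the cell cycle and yet had like changes here. Each is printed in the direction of the gene, with CCAAT and its reverse complement ATTGG in capitals. From the 250 bases before each start, the bases in an annotated exon were left out, which were 54 bases of the first exon of another TOP2A transcript and 32 bases of MIR4442, a microRNA gene on the same strand as TOP2B.
TOP2A: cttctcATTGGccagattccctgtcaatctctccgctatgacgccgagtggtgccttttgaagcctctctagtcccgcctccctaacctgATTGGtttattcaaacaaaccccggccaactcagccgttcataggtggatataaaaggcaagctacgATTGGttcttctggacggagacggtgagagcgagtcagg
TOP2B: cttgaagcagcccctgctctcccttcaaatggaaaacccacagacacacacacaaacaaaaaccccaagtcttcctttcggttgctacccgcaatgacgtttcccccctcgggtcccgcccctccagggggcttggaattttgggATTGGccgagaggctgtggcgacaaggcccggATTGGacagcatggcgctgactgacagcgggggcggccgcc

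CCAAT, the motif of the factor NF-Y, was found on either strand 4 times in the 250 bases before the TOP2A start, 3 of them in the printed stretch, and 2 times before the TOP2B start. Of 35116 promoters of the same length, 32.0% held it at least once and 0.874% held it at least 4 times, a number chosen after the TOP2A sequence had been seen. It was also present before the starts of 10 of the 10 cycle genes listed further on that have a promoter in the table. For this motif and the next, a cycle gene was counted if any of its starts had a match, whereas the percentages count single promoters. The counts of cycle genes therefore have no like background here. TTTGAA (reverse complement TTCAAA), which resembles the element of many cell cycle promoters, was found 2 times before TOP2A and 1 time before TOP2B, and before 4 of the same 10 cycle genes and in 13.3% of all promoters. Of the other genes with a promoter in the table, SPRTN and TDP1 had 1 match to TTTGAA each, and none had CCAAT. The motifs shared 0 bases in these windows. A second TOP2B start, nearer to the coding sequence, had 0 matches to either motif in its window, and a match describes letters, not binding.

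TOP2A had 48982 counts in the control library and 37397 in the exposed library, a log2 fold change of -0.27 (interval -0.29 to -0.25). TOP2B had 8207 and 6469 counts, a log2 fold change of -0.23 (interval -0.27 to -0.18). Both paralogs were lower in the exposed library by more than counting error, and were at -0.14 and -0.10 with the trend on transcript length and GC content removed. Among the genes of the highest decile of mean level, which holds TOP2A, the central 95% of log2 fold changes ran from -0.28 to 0.20, and TOP2A lay at percentile 3.26 of those genes. In the decile of TOP2B the range was -0.29 to 0.22, and TOP2B lay at percentile 5.67. The change of TOP2A minus that of TOP2B was -0.05 (exact conditional interval -0.10 to 0.01), so no difference between the paralogs was resolved at this depth. Per length, TOP2A stood 5.66 times above TOP2B in the control library and 5.77 times in the exposed library, so that the sign of the difference between their changes was reversed on the rounded TPM. In bulk RNA, fewer cells that make TOP2A and less TOP2A RNA per cell cannot be told apart.

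Among the genes nearest to TOP2A in level over the 2 libraries, by Euclidean distance of log2(TPM + 1), were GLO1 and ALOX5AP, at distances of 0.11 and 0.13. GLO1 had 399 and 351 TPM. Among those nearest to TOP2B were SMG1 and MTF2, at distances of 0.02 and 0.05, and SMG1, a kinase of nonsense-mediated decay, had 74 and 57 TPM.

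The type IA enzymes pass a single strand and serve recombination intermediates and RNA. TOP3A, which with BLM, RMI1 and RMI2 dissolves double Holliday junctions and also separates mitochondrial genomes, had 3033 and 2681 counts, a log2 fold change of -0.06 (interval -0.14 to 0.01). TOP3B, which works with TDRD3 and can also act on RNA, had 837 and 808 counts, a log2 fold change of 0.07 (interval -0.07 to 0.21). Neither gene differed between the libraries beyond counting error. The change of TOP3A minus that of TOP3B was -0.13 (exact conditional interval -0.29 to 0.03). This difference was -0.07 on the deposited TPM and also -0.07 with the trend on length and GC content removed.

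Of the adduct repair genes, TDP1 and TDP2 encode enzymes that cut the bond between tyrosine and DNA, TDP1 mainly at the 3′ ends left by TOP1 and TDP2 at the 5′ ends left by TOP2A and TOP2B. TDP1 had 2102 and 1853 counts, a log2 fold change of -0.06 (interval -0.16 to 0.03), and TDP2 had 5192 and 4726 counts, a log2 fold change of -0.02 (interval -0.08 to 0.04). TDP2 thus lay near the middle of the genes of its level while its substrates' genes, TOP2A and TOP2B, lay low among theirs; these differences between TDP2 and the type II enzymes were not among the pairs compared. The change of TDP1 minus that of TDP2 was -0.05 (exact conditional interval -0.15 to 0.06). It was -0.03 on the deposited TPM and -0.06 with the trend on length and GC content removed.

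SPRTN (chr1:231338293-231355023, plus strand) encodes a protease that travels with the replication machinery and digests proteins crosslinked to DNA. It had 1166 counts in the control library and 908 in the exposed library, a log2 fold change of -0.24 (interval -0.37 to -0.12). Among genes of like level, whose central 95% ran from -0.39 to 0.36, SPRTN lay at percentile 9.69. An exon of SPRTN overlaps EXOC8 on the opposite strand, which had 1343 and 1136 counts, and whether strand was used in counting is not given in the sources used here. RARB and PLCG1-AS1, which overlap exons of TOP2B and TOP1 on the opposite strand, had 0 counts. The TOP1 pseudogenes TOP1P1 and TOP1P2 had 12 and 0 counts in the control library, few beside those of TOP1.

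All 9 genes lay inside the central 95% of log2 fold changes of genes of like level. The changes between the libraries also followed the GC content of the transcripts over all genes. The median log2 fold change was -0.13 in the lowest decile of GC content, of which 81.5% were lower in the exposed library, and 0.12 in the highest decile, of which 24.6% were lower. TOP2A, with a GC content of 39.1%, lay in the lowest decile and TOP2B, with 39.7%, in the next, where the median was -0.10. TOP1, TDP2 and SPRTN lay in the third decile, with a median of -0.06. Thus 5 of the 9 genes were in the 3 lowest deciles, and all 5 were lower in the exposed library, as were 81.5%, 78.0% and 66.2% of the genes of these deciles. TOP3A and TOP1MT were lower too, in deciles of which 38.1% and 32.5% of the genes were lower, but the counting intervals of both held 0. TDP1 was lower in a decile of which 60.1% were lower, and TOP3B was higher in a decile of which 27.1% were lower. The counting intervals of TDP1 and TOP3B also held 0.

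With the trend on transcript length and GC content removed by a robust regression, the log2 fold change of TOP2A was -0.14, that of TOP2B -0.10 and that of TOP1 -0.03. The values of all 3 genes thus lay nearer to 0 than before the removal, and that of TOP1 lay above its own counting interval, as did those of TOP2A and TOP2B. SPRTN was at -0.17 and TOP1MT, whose GC content was 57.4%, moved further down to -0.35. It was then past -0.32, as were 927 of the 12017 tested genes with a value. The counts of TOP1MT were few, and its counting interval before the removal, -0.53 to 0.01, held 0. TDP2 turned to 0.02 and TOP3B to -0.01, so that 8 of the 9 genes were again lower but with TDP2 in place of TOP3B as the exception, where 53.2% of the 12017 tested genes with a value were lower. The median over the 9 genes was then -0.08, against -0.01 over all tested genes with a value.

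**Figure D2:**
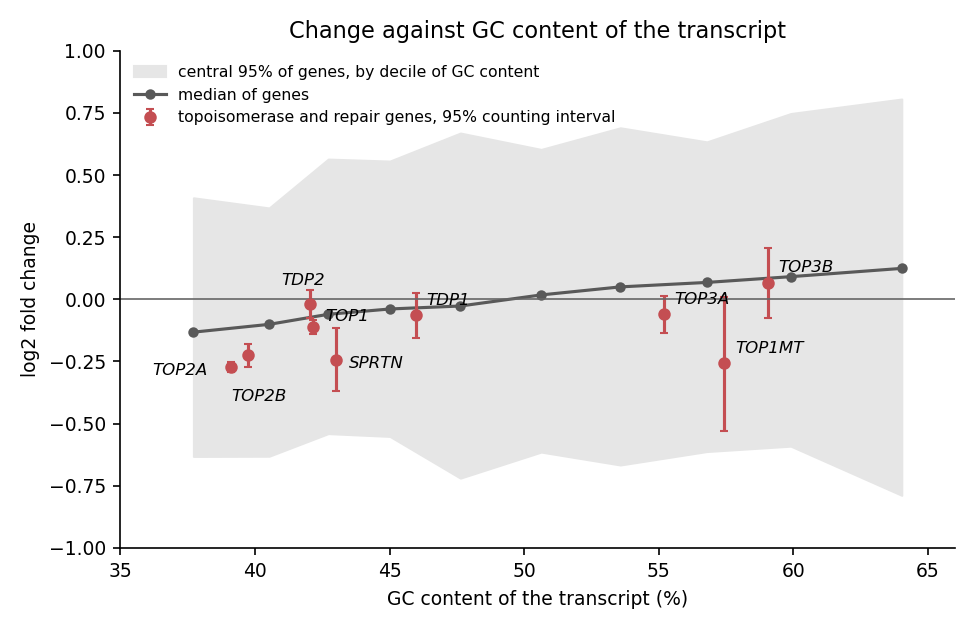
Log2 fold change (exposed over control) against the GC content of the transcript. The line joins the medians of deciles of the tested genes by GC content, the grey band is their central 95% range, and the red points are the 9 genes with 95% counting intervals. TOP2A and TOP2B lie at low GC content, where the median of all genes is -0.13 and -0.10, and of the 9 points that of TDP2 lies above the line and the others lie below it.

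The proteins that work with these enzymes were read from lists. Beside each count of lower genes, 50.3% of all tested genes were lower, and 53.2% of those with a value once the trend was removed. Of the 7 partners of TOP3A and TOP3B, 4 were lower and 3 higher, with a median log2 fold change of -0.02. The interval lay below 0 for 3 and above 0 for 2, against 23.9% and 21.8% of tested genes, many with fewer counts and wider intervals. BLM, the helicase that acts with TOP3A, had 4459 and 3641 counts and a log2 fold change of -0.18 (interval -0.24 to -0.11), and FXR1, a relative of the fragile X protein, had -0.14 (interval -0.19 to -0.10). RMI2, a subunit of the same complex as BLM, was on the other side with 249 and 285 counts and a log2 fold change of 0.31 (interval 0.06 to 0.56), as was FXR2 with 0.12 (interval 0.01 to 0.24). BLM and RMI2 therefore did not share a direction. With the trend on length and GC content removed, BLM was at -0.07, FXR1 at -0.05, RMI2 at 0.25 and FXR2 at 0.04, and the median of the list turned to 0.04, with 3 of the 7 lower.

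Of the 6 genes of single-strand break repair, which completes the work of TDP1, 2 were lower and 4 higher, against 50.3% of tested genes lower. The median was 0.03, which turned to -0.02 with the trend removed. The interval lay below 0 for 1 and above 0 for 1, against 23.9% and 21.8% of tested genes, many with fewer counts and wider intervals. LIG3, the ligase of this repair, had a log2 fold change of -0.08 (interval -0.15 to -0.01), or -0.04 with the trend removed. APTX, which clears failed ligations, had 0.10 (interval 0.02 to 0.18), and also 0.10 with the trend removed. Of the 8 nucleases that can cut adducts away, 5 were lower and 3 higher, against 50.3% of tested genes lower, and the median was -0.09. All 8 had an interval outside 0, against 23.9% of tested genes with an interval below and 21.8% with an interval above. Many of the tested genes have fewer counts and so wider intervals. RBBP8, which activates the MRE11 nuclease, had a log2 fold change of -0.17 (interval -0.22 to -0.12), and RAD50, the partner of MRE11, had -0.13 (interval -0.18 to -0.09). ERCC1 had 0.17 (interval 0.10 to 0.24) and MUS81 had 0.08 (interval 0.01 to 0.16). The lower of these nuclease genes had transcripts of lower GC content, 40.0% for RBBP8 and 41.4% for RAD50, against 58.1% for ERCC1 and 60.6% for MUS81, and with the trend removed RBBP8 was at -0.08 and ERCC1 at 0.04, while RAD50 turned to 0.01, MUS81 to -0.02 and the median of the list to 0.02, with 3 of the 8 lower.

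Of the 6 genes of end joining, which rejoins ends freed by TDP2, 4 were lower and 2 higher, against 50.3% of tested genes lower. The median was -0.06. The interval lay below 0 for 3 and above 0 for 1, against 23.9% and 21.8% of tested genes, many with fewer counts and wider intervals. PRKDC, the catalytic subunit of the DNA-dependent protein kinase, had 55048 and 42689 counts and a log2 fold change of -0.25 (interval -0.27 to -0.23), close to that of TOP2A. LIG4, the ligase of this pathway, had -0.18 (interval -0.28 to -0.08). NHEJ1, which bridges the ends, had 1330 and 1439 counts and a log2 fold change of 0.23 (interval 0.12 to 0.34). With the trend removed, 3 of the 6 were lower, against 53.2% of tested genes with a value, and the median was 0.00. The values were then -0.11 for PRKDC, -0.04 for LIG4 and 0.22 for NHEJ1.

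Of the 13 genes of protein degradation and of SUMO and ubiquitin signals at adducts, 12 were tested, since DDI1 had 0 counts in both libraries. Of these, 6 were lower and 6 higher, against 50.3% of tested genes lower, with a median of 0.00. The interval lay below 0 for 3 and above 0 for 5, against 23.9% and 21.8% of tested genes, many with fewer counts and wider intervals. In each direction 1 lay past 0.32, against 9.48% of tested genes on the lower and 9.37% on the higher side. TEX264, which brings the segregase VCP and SPRTN to TOP1 adducts, was the gene past it on the higher side, with 1301 and 1506 counts and a log2 fold change of 0.33 (interval 0.22 to 0.44). UFD1, a cofactor of VCP, had 0.15 (interval 0.08 to 0.23), or 0.11 with the trend removed. GCNA, a protease related to SPRTN, was past it on the lower side with 185 and 126 counts and a log2 fold change of -0.43 (interval -0.78 to -0.10). The protease gene DDI2 had 9332 and 7083 counts and a log2 fold change of -0.28 (interval -0.33 to -0.24). With the trend removed, TEX264 was at 0.18 and no longer past 0.32, DDI2 was at -0.13 and GCNA at -0.41. The median of the list was then 0.05 with 3 of the 12 lower, against 53.2% of tested genes with a value. TEX264 and its partner SPRTN lay on opposite sides of 0 both before and after the removal. TEX264 shares exon bases on the same strand with RAD54L2 (4312 and 3562 counts) and DDI2 with RSC1A1 (4 and 2 counts), and APTX, RAD50, RBBP8 and NHEJ1 also overlap another annotated gene, so their counts depend on how shared reads were divided. MUS81, ERCC1, LIG3, FXR2, RMI2 and UFD1, and TOP3B among the 9 genes, have exons that overlap a gene on the opposite strand, as SPRTN has.

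Since TOP2A is made in dividing cells, it was read beside 14 cycle genes. Of these, 11 were lower and 3 higher in the exposed library, with a median of -0.08, where 50.3% of all tested genes were lower. The interval lay below 0 for 10 and above 0 for 1, against 23.9% and 21.8% of all tested genes, most of which have fewer counts and wider intervals. CENPF, a kinetochore protein, had 17213 and 11440 counts and a log2 fold change of -0.47 (interval -0.51 to -0.44), and BUB1, a kinase of the spindle checkpoint, had 13813 and 10066 counts and -0.34 (interval -0.38 to -0.30). These were the 2 cycle genes below -0.32, and none lay above 0.32, against 9.48% and 9.37% of tested genes. MKI67, the proliferation antigen, had 39836 and 30871 counts and -0.25 (interval -0.27 to -0.23), close to TOP2A, whereas AURKB, an Aurora kinase, had 0.07 (interval 0.00 to 0.15). With the trend on length and GC content removed, CENPF was at -0.31, BUB1 at -0.27 and MKI67 and TOP2A both at -0.14, and AURKB turned to -0.05. The median of the list was then -0.06 and 11 of the 14 were lower, where 53.2% of the tested genes with a value were lower. The 3 exceptions were now other genes, CCNA2, CCNB1 and KIF11 in place of PLK1, UBE2C and AURKB. TOP2A was thus lower than the median cycle gene and above CENPF and BUB1, both before and after the removal. AURKA, at -0.19 before and -0.18 after, lay above TOP2A before the removal and below it after.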

How the data were processed

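Per the labels and the study's methods, the authors sequenced TruSeq stranded mRNA libraries on a NovaSeq6000, and the submitters' processing notes name Trimmomatic 0.38, HISAT2 2.2.0, StringTie 2.1.3b, edgeR 3.17 and the build hg38. The authors deposited read counts per gene, not scaled between libraries and with commas in larger values, and FPKM and TPM that they rounded to whole numbers and that were treated as a score. The members and the gene lists were chosen with earlier results of these data known.

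Counts of 46427 rows were summed by symbol and scaled by the trimmed mean of M-values (30% of log ratios and 5% of levels trimmed; factors 1.00 and 0.999). Log2 CPM used a prior count of 2. No count model was fitted, because each group has 1 library, and calls are by fold (25% higher or 20% lower, a log2 fold change past 0.32, and 2-fold) among genes with at least 20 counts. Pairs of genes were compared by the ratio of their count ratios with an exact conditional 95% interval, which does not depend on the scaling. Ranges of like level come from deciles of the tested genes by mean log2 CPM.

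Length and GC content came from GENCODE 29 transcripts paired with the RefSeq transcripts of the table, or by gene identifier, and 87.9% of the tested genes had values. The trend was a Huber regression on log2 length and GC content over 9965 genes with at least 200 counts. Promoters are from RefSeq.

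The genes named are the 9 members, MKI67, the 2 genes in each direction of each other list with at least 100 counts whose interval bound nearest to 0 lay farthest from it, or fewer where fewer intervals lay outside 0, and the 3 genes nearest in TPM to TOP2A and to TOP2B. The results of some genes so named and of some markers are not reported here. Overlapping genes, pseudogenes, DDI1, AURKA and the cycle genes named for a turn of direction fall outside this rule and were named after their values were seen. Scripts, tested on simulated data, used scipy 1.17.1, statsmodels 0.14.6, pandas 2.3.3, numpy 2.4.6 and matplotlib 3.10.9 under Python 3.11.15. Alternatives were other scalings, prior counts of 0.5 and 5, count filters, the deposited TPM and FPKM, and removal of the trend.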

Additional observations from a re-analysis of the deposited data

How the results depend on the processing

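With scaling by the upper quartile, by library size or by median of ratios, and with prior counts of 0.5 and 5, 8 of the 9 genes were lower and 1 higher, and the median moved by less than the counting interval of TOP1, the middle gene. With the deposited TPM and a pseudocount of 1 the median was -0.16 (over all genes with at least 20 TPM in both libraries, the change on TPM minus that on scaled counts had a median of -0.05), TOP2A and TOP2B passed -0.32, 0 genes were higher because TOP3B was listed at the same TPM in both libraries, and the change of TOP2A minus that of TOP2B was 0.024. With length and GC content removed the median was -0.081 and TOP1MT passed -0.32, as did 927 of the tested genes. Over all 8 alternatives, TOP2A ranged from -0.33 to -0.14, TOP2B from -0.35 to -0.10, TOP1 from -0.16 to -0.03 and SPRTN from -0.28 to -0.17, each lower in every one, whereas TDP2 was below 0 in 6 of 8 and TOP3B in 2 of 8.

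The number of tested genes higher by more than 0.32 on the log2 scale was 672 with the deposited TPM, 714 with length and GC content removed and 706 with those of the longest transcript, a setting chosen after seeing the data, with 1109, 927 and 917 lower, the removal being possible for 87.9% of the tested genes with the paired transcripts, and 2-fold differences then numbered 37, 225 and 223. With at least 1 count, 3498 genes were higher by more than 0.32, 3384 lower and 2481 past 2-fold, and with at least 200 counts 358, 453 and 21, since these filters change how many genes are tested. The cause of the other shifts was not tested. No paired analysis was possible because each group has 1 library, and for the same reason no library could be left out. Depth limits TOP1MT most, with 469 counts over both libraries.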
